A study of Mus musculus with 2 samples.

Results

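The glutathione transferases, glutathione peroxidases and selenoproteins of the mouse adrenal gland were taken as the protein-coding genes whose symbol starts with Gsta, Gstk, Gstm, Gsto, Gstp, Gstt, Gstz, Mgst or Gpx followed by a number, or with Seleno followed by letters. The rule uses only the symbols and biotypes in the deposited transcript names. The rule gave 45 genes out of 55536 in the gene table, of which 21951 are protein-coding. There were 22 cytosolic and mitochondrial transferases, 3 microsomal transferases, 8 glutathione peroxidases and 12 genes of the Seleno series. Selenoproteins with other names, such as the thioredoxin reductases, are outside the rule and were followed as a separate list.

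Total RNA of the whole adrenal gland was sequenced from 2 female mice of the strain B6CASTF1/J, an F1 cross of C57BL/6J and CAST/EiJ, aged 18 to 20 months. Per the labels, 300 ng of RNA went into each strand-specific library after depletion of ribosomal RNA, and ERCC spike-ins (synthetic control RNAs) were added. The libraries are called animal 1 and animal 2 after their biological replicate numbers and form 1 group, with no treatment, second genotype or second age. In the labels of animal 2, a description carries the names given to animal 1 while another field names a different female, and the donor identifier is the same for both. Reads of both parental genomes were quantified against the mm10 reference, whose sequence is that of C57BL/6J, so sequence differences of the CAST/EiJ copies are not part of the tables.

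Glutathione is the main small thiol of the cell. Transferases of the Gst and Mgst families join it to reactive lipids, drugs and other electrophiles, and glutathione peroxidases use it to reduce hydrogen peroxide and lipid hydroperoxides. Several peroxidases and the proteins of the Seleno series carry selenocysteine, an amino acid placed at a UGA codon that elsewhere ends translation. Its insertion needs a dedicated tRNA and a stem-loop in the same mRNA. In the adrenal cortex, steroid hormones are made by mitochondrial and microsomal cytochromes P450 that leak reactive oxygen, and these enzymes are part of the cell's defence against it.

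The codon that sets the catalytic residue differs within the peroxidase family, and the stretches below show it in 7 codons on either side, read from the GENCODE M21 transcripts of the mm10 reference, 5′ to 3′. The capitals mark the selenocysteine codon TGA or the codon aligned with it. Gpx1, Gpx2, Gpx3 and Gpx4 have an annotated selenocysteine, and the aligned codon of Gpx5, Gpx6, Gpx7 and Gpx8 is one of the cysteine codons TGC and TGT.
Gpx1: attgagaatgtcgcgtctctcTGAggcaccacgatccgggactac
Gpx2: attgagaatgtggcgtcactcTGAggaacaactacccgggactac
Gpx3: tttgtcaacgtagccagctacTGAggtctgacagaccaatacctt
Gpx4: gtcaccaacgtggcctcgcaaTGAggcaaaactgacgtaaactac
Gpx7: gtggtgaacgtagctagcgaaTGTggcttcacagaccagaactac
Gpx8: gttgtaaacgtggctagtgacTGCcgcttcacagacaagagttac
In mm10 the codon is at chr9:108339451-108339453 in exon 1 of Gpx1, at chr11:54907256-54907258 in exon 2 of Gpx3 and at chr10:80054737-80054739 in exon 3 of Gpx4, all on the plus strand. The cysteine codon of Gpx8 is at chr13:113045661-113045663 in exon 2, on the minus strand.

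In the Seleno series, 6 genes (Selenoh, Selenom, Selenoo, Selenot, Selenov and Selenow) have a cysteine codon 3 codons before the selenocysteine, the pattern of a redox pair, shown here for Selenow and Selenot with the selenocysteine codon in capitals. In Selenok, Selenoo and Selenos the selenocysteine lies within the last 5 codons of the coding sequence, so that stopping at the UGA would remove very little of the protein. Selenop has 10 annotated selenocysteine codons, and the first of them, codon 59 of 380, is shown.
Selenow: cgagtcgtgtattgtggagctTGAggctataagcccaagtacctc
Selenot: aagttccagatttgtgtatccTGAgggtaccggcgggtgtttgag
Selenos: aggggcccatcatctggcggcTGAaac
Selenop: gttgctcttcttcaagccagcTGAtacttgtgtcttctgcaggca
These codons are at chr7:15920464-15920466 in exon 2 of Selenow (minus strand), chr3:58585238-58585240 in exon 2 of Selenot, chr7:66088844-66088846 in exon 6 of Selenos and chr15:3274848-3274850 in exon 2 of Selenop (plus strand).

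Levels are given as TPM, a length- and depth-corrected measure that can be compared between genes of a library. Totals of expected counts, the estimated reads or fragments per gene, were 35769717 in animal 1 and 35135703 in animal 2. A level of at least 1 TPM in both libraries, the threshold used here for detection, was reached by 35 of the 45 genes, where 52.6% of all protein-coding genes reached it. The sum of the 45 genes was 2417 TPM for animal 1 and 2593 TPM for animal 2, or 0.251% of the total. The list of steroidogenic cortex markers summed to 15669 and 20107 TPM, with 7 of 7 genes detected, and that of chromaffin cells of the medulla to 1796 and 1517 TPM, with 5 of 5 detected, so both parts of the labelled organ were present.

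Microsomal transferases summed to 737 and 801 TPM in animals 1 and 2, and nearly all of it was Mgst1. They held the largest sum of the 8 classes in the first quantification, while in the second the mean sum of the peroxidases, 1315 TPM, was above theirs, 1258 TPM. Mgst1, a membrane-bound transferase and peroxidase of the endoplasmic reticulum and the outer mitochondrial membrane, was at 654 and 718 TPM and ranked 34 among protein-coding genes by mean level. Mgst2, which also makes leukotriene C4, was at 53.8 and 54.7 TPM. Mgst3 followed at 28.9 and 28.2 TPM. The distance between Mgst1 and Mgst3 was 4.58 ± 0.12 on the log2 scale (mean ± SD, n = 2), far more than the spread between the animals.

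The peroxidases summed to 696 and 694 TPM and were led by Gpx4, which reduces lipid hydroperoxides within membranes and protects against ferroptosis. Gpx4 was at 298 and 329 TPM. Gpx1, the cytosolic and mitochondrial enzyme that reduces hydrogen peroxide, was at 239 and 226 TPM. The extracellular Gpx3 was at 125 and 113 TPM, below Gpx1 by 0.97 ± 0.04 on the log2 scale (mean ± SD, n = 2). Gpx4 exceeded Gpx1 by 1.24-fold in animal 1 and 1.46-fold in animal 2. With coding transcripts only, Gpx4 was below Gpx1, at 208 and 192 TPM against 239 and 225 TPM. The pair was nearly level without the correction for length, and also in the second quantification, which has that correction. Log2 of Gpx4 over Gpx1 was 0.43 ± 0.16 for TPM, 0.03 ± 0.08 for expected counts with no such correction and 0.04 ± 0.04 for TPM of the second quantification (mean ± SD, n = 2 each). The gap between Gpx3 and Gpx1 was absent without the correction for length but was kept in the second quantification. Log2 of Gpx3 over Gpx1 was 0.04 ± 0.02 for expected counts with no correction and -0.91 ± 0.12 for TPM of the second quantification (mean ± SD, n = 2 each).

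Of the cysteine peroxidases, Gpx8, an enzyme of the endoplasmic reticulum, was at 33.5 and 24.4 TPM. Gpx7, its nearest relative in the same compartment with 55.9% of aligned coding bases identical, was only at 1.32 and 1.3 TPM. Gpx2, the gastrointestinal enzyme, Gpx5, the epididymal enzyme, and Gpx6 of the olfactory epithelium had no expected count in either library. With 0 counts seen, as many as 3 remain possible from counting error alone, which is 0.0839 and 0.0854 CPM (counts scaled to the library total) in animals 1 and 2. The second quantification listed Gpx6 at 0 in both libraries, Gpx5 at 0.029 TPM in animal 1 and at 0 in animal 2, and Gpx2 at 0.014 TPM in both.

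Genes of the Seleno series summed to 422 and 417 TPM, and 11 of 12 were detected. Selenop, the plasma selenoprotein that carries selenium between organs, was at 103 and 101 TPM. Selenof, a partner of a glycoprotein folding sensor in the endoplasmic reticulum, was at 103 and 97.8 TPM, so the ranges of these 2 genes overlapped. In the second quantification they were apart, with Selenop at 257 and 259 TPM and Selenof at 197 and 177 TPM. Selenow, a small thioredoxin-fold protein, followed at 62.2 and 54.0 TPM. Selenot, of the same fold in the endoplasmic reticulum, was at 40.7 and 44.5 TPM. Selenok was at 34.8 and 38.8 TPM and Selenos at 27.6 and 35.7 TPM; both belong to the machinery that removes misfolded proteins from the endoplasmic reticulum.

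The rest of the series was lower. Selenom of the endoplasmic reticulum was at 13.4 and 12.1 TPM and Selenoo, a mitochondrial enzyme that attaches AMP to proteins, at 11.8 and 11.9 TPM. Selenoh, a nuclear protein, was at 9.37 and 8.70 TPM. Selenon, whose human counterpart is mutated in a congenital muscle disease, was at 8.68 and 7.32 TPM. Selenoi, an ethanolamine phosphotransferase, was at 7.33 and 5.78 TPM. Selenov stood apart at 0.02 TPM in both libraries, from 1 expected count in each, while the second quantification listed it at 1.19 and 0.844 TPM.

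Among the cytosolic transferases, Gstp1, the pi enzyme, was at 137 and 118 TPM. Its neighbour Gstp2 was at 20.2 and 15.2 TPM. The pair differed by 2.87 ± 0.14 on the log2 scale (mean ± SD, n = 2), although 98.1% of their aligned coding bases are identical. In the second quantification the difference was 2.60 ± 0.64 (mean ± SD, n = 2), with 3.06 in animal 1 and 2.15 in animal 2. Gstp3 was below detection at 0.34 and 0.60 TPM. The 3 pi genes lie within 24.2 kb at chr19:4035407-4059569.

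All 7 mu-class genes lie within 149 kb at chr3:107895821-108044894, and 6 of them were detected, over a 57.2-fold range in animal 1 and a 53.1-fold range in animal 2. Gstm1 was at 114 and 128 TPM, and Gstm2 at 60.8 and 63.7 TPM. The distance between these neighbours was 0.96 ± 0.06 on the log2 scale (mean ± SD, n = 2). Gstm7 was at 33.6 and 54.0 TPM. Gstm5 was at 10.1 and 9.06 TPM, Gstm4 at 5.84 and 5.93 TPM and Gstm6 at 2.00 and 2.40 TPM. Gstm3, which lies between Gstm6 and Gstm2, was at 0.20 and 0.10 TPM, from 9 and 4 expected counts.

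In the kappa, zeta and omega classes, summing to 115 and 211 TPM, the highest gene was Gstk1. This kappa-class transferase of mitochondria and peroxisomes was at 55.4 TPM in the first animal and 144 TPM in the second. Gstz1, which isomerises maleylacetoacetate in tyrosine breakdown, was at 34.3 and 35.6 TPM. Gsto1, an omega-class thioltransferase, was at 24.5 and 30.5 TPM. Its neighbour Gsto2 was at 1.01 and 0.63 TPM and so reached the detection level only in animal 1.

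Theta-class genes lie within 63.3 kb on chromosome 10, and 3 of 4 were detected over a narrow range of 1.98-fold in animal 1 and 2.26-fold in animal 2. Gstt1 was at 18.5 and 17.5 TPM, Gstt3 at 9.34 and 9.22 TPM and Gstt2 at 9.41 and 7.71 TPM, while Gstt4 had no expected count and was listed at 0 by both quantifications.

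The alpha class summed to 24.6 and 39.4 TPM, near the theta class at 37.2 and 34.4 TPM. Gsta4, which conjugates 4-hydroxynonenal from oxidised lipids, was at 14.9 and 15.8 TPM. Gsta3, whose human counterpart isomerises steroids in steroid-making tissue, was at 8.72 and 20.6 TPM, so the order of the pair differed between the animals. Log2 of Gsta4 over Gsta3 was 0.77 in animal 1 and -0.38 in animal 2. Gsta2 was at 0.79 and 2.92 TPM, and Gsta1 at 0.18 and 0.05 TPM; the second quantification listed Gsta1 at 0 in animal 2. Across the 41 genes with a count, 27 of 40 neighbours in the order of mean level had ranges that overlapped between the animals.

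**Figure D1:**
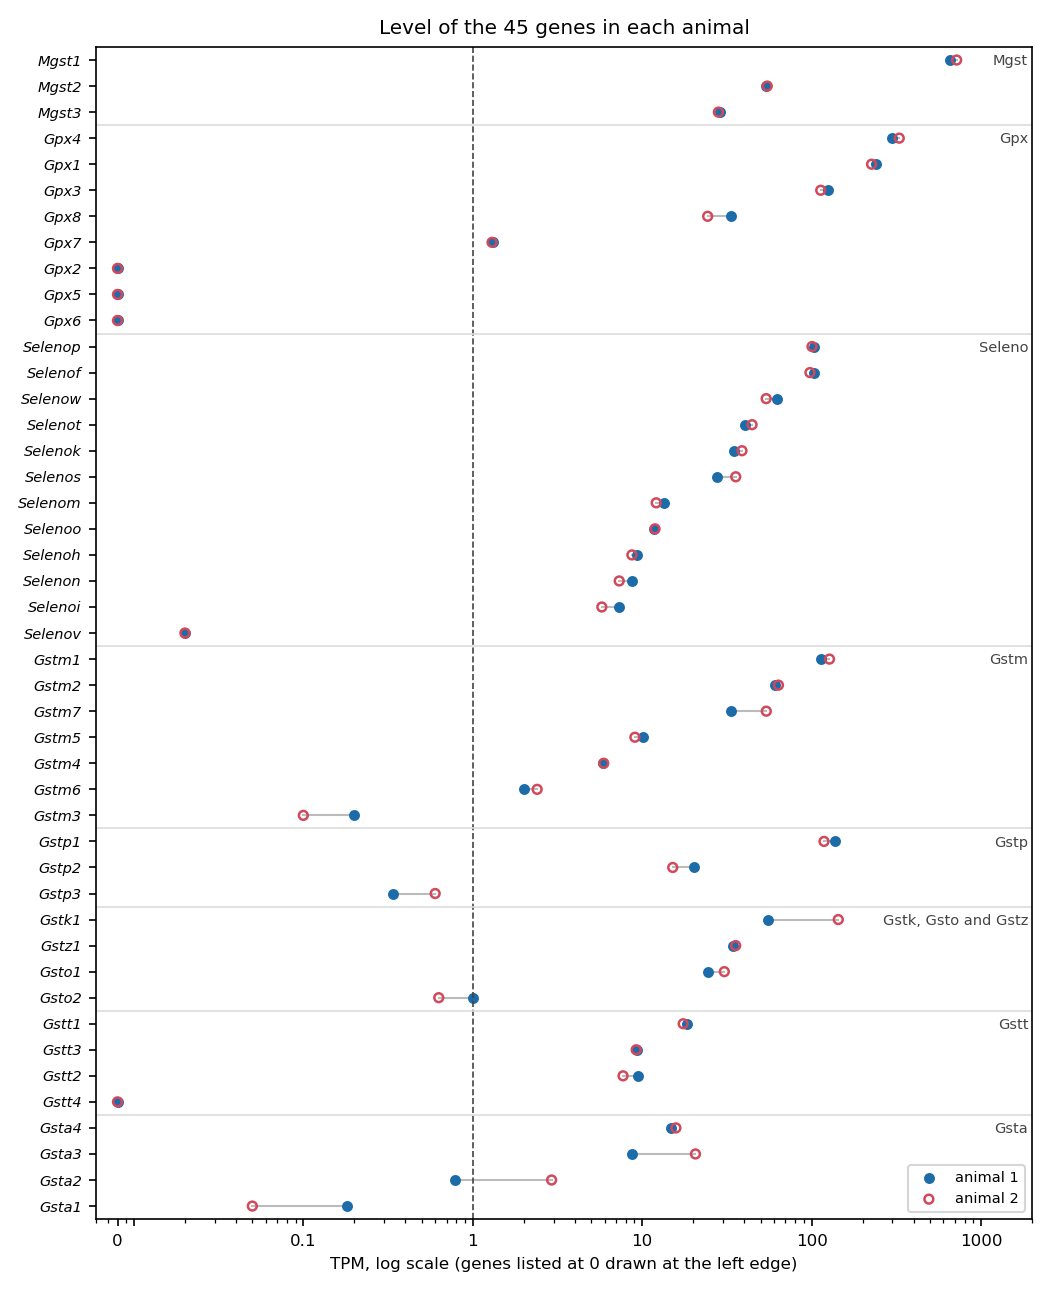
Level of each of the 45 genes as TPM on a log axis, with animal 1 as filled and animal 2 as open points, grouped by class and ordered by mean within it. The dashed line is the detection level of 1 TPM, and the longest gaps above it are those of Gstk1 and Gsta3.

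Transcript levels were then turned into selenocysteine codons by multiplying the TPM of each transcript by its annotated number of such codons. Of 24 genes with at least 1 annotated selenocysteine codon, 16 belong to the set described here. All transcripts together held 1841 and 1775 selenocysteine codons on the TPM scale in animals 1 and 2, of which the set held 92.3% and 91.8%. Selenop alone held 53.9% and 55.5%, although it made up only 10.96% and 11.40% of the selenocysteine transcripts. Gpx4 held 11.3% and 10.8% of the codons, Gpx3 6.77% and 6.38%, and Gpx1 6.29% and 4.91%. For Gpx1 only Gpx1-201 was counted, at 116 and 87.2 TPM, since its other transcripts have no annotated selenocysteine codon. The share of Gpx1 thus depends on how the gene was divided over its transcripts. In the second quantification the share of Selenop was 48.4% and 50.1%, again ahead of Gpx4 at 14.3% and 14.9%. There Gpx1, at 9.24% and 7.43%, stood above Gpx3, at 7.98% and 7.17%. These are shares of mRNA codons, and how often they were translated was not measured.

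**Figure D2:**
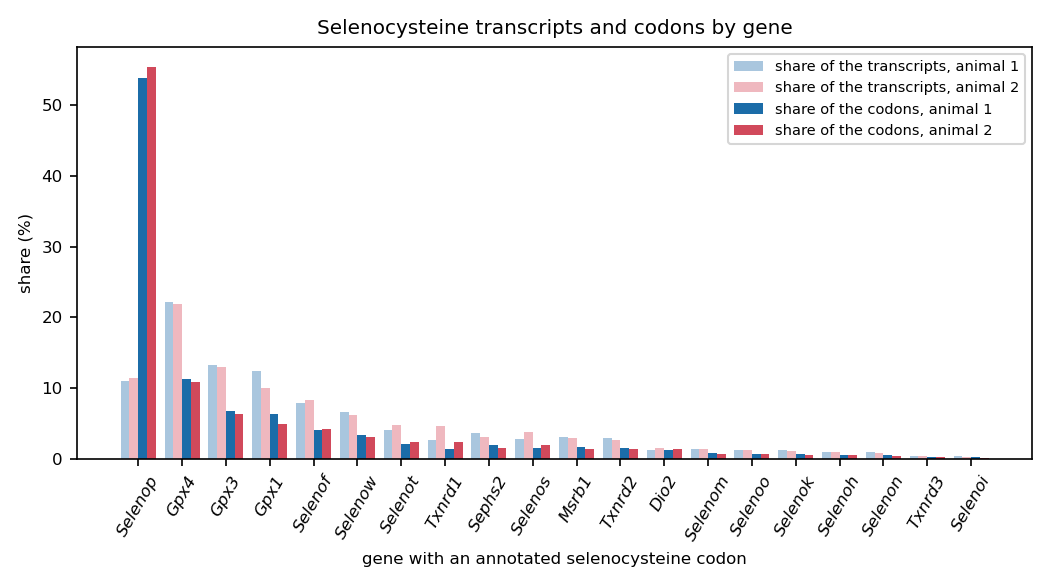
Share of each gene in the selenocysteine transcripts (pale bars) and in the selenocysteine codons (dark bars) of animals 1 and 2, in percent. Selenop rises from 10.96% and 11.40% of the transcripts to 53.9% and 55.5% of the codons.

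How the level of a gene divided over its annotated transcripts differed between genes and between the quantifications. Gpx4 is described first. In the first quantification, which starts from an alignment to the transcriptome, Gpx4-203, a 280-base transcript annotated as a retained intron, received 88.0 and 135 TPM, or 29.6% and 40.9% of the gene. The second quantification, made directly from the reads, put it at 0 in both libraries. The 959-base coding transcript Gpx4-202 had 44.7% and 33.3% in the first and 91.9% and 84.2% in the second, and Gpx4-207 had 23.9% and 22.8% in the first. Coding transcripts of Gpx4 alone were at 208 and 192 TPM, so with them the order of the animals was the opposite of that of the whole gene. The coding transcripts of Gpx1 were at 239 and 225 TPM, above those of Gpx4 in both libraries.

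Mgst1 differed in another way, because all its transcripts are annotated as coding. The 742-base Mgst1-207 had the largest or second largest share in the first quantification, 43.1% and 38.5%, and 0 in the second, where the 1167-base Mgst1-201 held 66.8% and 58.2% after 13.0% and 9.87% in the first. Mgst1-204 had 37.6% and 39.0% in the first and 31.0% and 36.2% in the second.

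Gpx1 divided over a pair of coding transcripts. Gpx1-201, which holds the annotated selenocysteine codon, was at 116 and 87.2 TPM, and Gpx1-204, which holds none, at 113 and 128 TPM. Gpx3-201 had 99.8% and 100% of Gpx3, Gstk1-201 98.7% and 98.4% of Gstk1, and Gstm2-201 98.7% and 95.8% of Gstm2. Selenop-201 had 82.3% and 91.8% of Selenop in the first quantification but 46.6% and 58.4% in the second. Gstm1-201 had 78.9% and 77.1% of Gstm1 and Gstm1-204, a processed transcript, 18.9% and 21.04%, where the second quantification gave the latter 5.39% and 12.5%.

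Gstp1 and Selenof also gave a part of their level to transcripts that are not annotated as coding. For Gstp1 the share was 32.9% and 32.1%, carried by the retained-intron transcript Gstp1-203 at 31.8% and 31.1%, and Gstp1-201 had 66.8% and 67.7%. The second quantification gave Gstp1 a like share, 24.7% and 32.5%, but on another retained-intron transcript, Gstp1-206, at 24.0% and 24.6%. In Selenof, Selenof-201 had 42.0% and 46.7%, Selenof-202 29.2% and 28.3%, and the processed transcript Selenof-203 28.2% and 23.9%. The second quantification put Selenof-202 at 0 in both libraries and Selenof-201 at 71.3% in each.

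In Selenok and Selenoi most of the level lay outside the coding transcript in both quantifications. For Selenok it was 67.3% and 76.2% in the first and 80.3% and 78.7% in the second. Selenok-203, annotated as a target of nonsense-mediated decay, had 46.9% and 47.1% in the first and 80.0% and 77.6% in the second quantification. For Selenoi the share was 56.2% and 56.5% in the first and 64.9% and 64.2% in the second. The coding transcript of Selenok was at 11.4 and 9.24 TPM and that of Selenoi at 3.21 and 2.52 TPM.

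**Figure D3:**
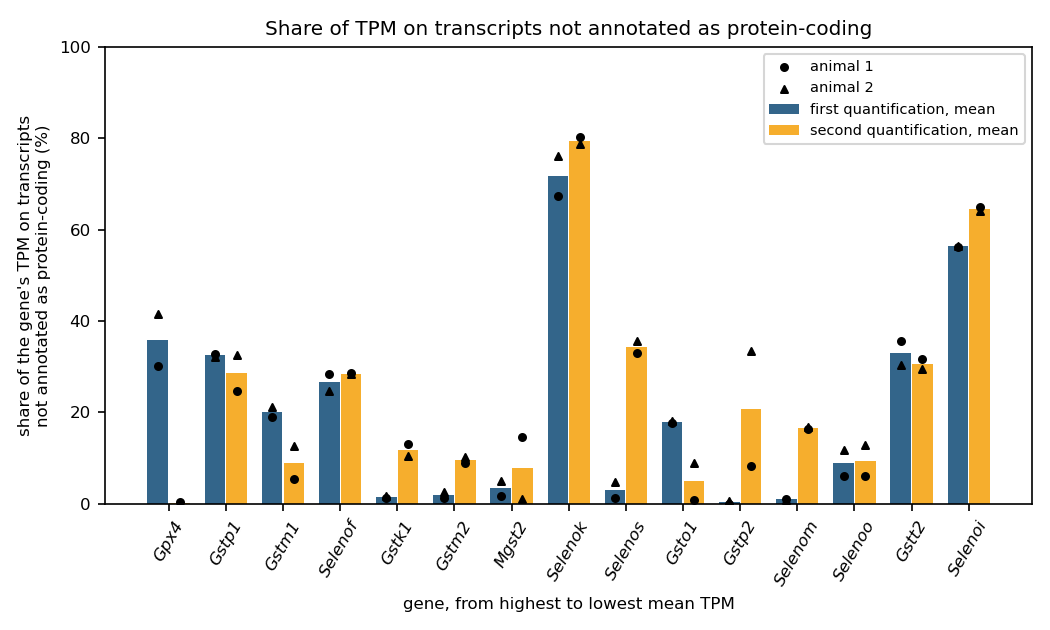
Share of a gene's TPM on transcripts not annotated as protein-coding, in percent, for genes of the set with a mean of at least 5 TPM and a share of at least 10% in 1 table; bars are means of the 2 libraries and points the animals. Gpx4 has a high share in the first quantification only, and Selenok and Selenoi have the highest in both.

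The animals were compared by the log2 ratio of expected counts, animal 2 over animal 1, after TMM scaling (which sets the bulk of genes to equal level) with 0.5 added to each count. With 1 library per animal there is no test, and the ratio describes these 2 libraries. A gene was counted as 2-fold apart if the ratio reached 2 in either direction, the 2 libraries averaged at least 50 expected counts and the deposited TPM intervals, of unstated level, did not overlap. By this rule 2 of 35 genes of the set were apart in either direction, where 3.46% of all 13569 genes with such a count were. Both were higher in animal 2, where 1.71% of all genes were, and 0 were higher in animal 1, where 1.75% were.

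For Gstk1, 1804 expected counts in animal 1 stood against 4263 in animal 2, a scaled ratio of 2.50-fold, or 1.32 on the log2 scale with a Wilson 95% interval of 1.24 to 1.40 that covers counting error only. Its deposited intervals were 52.1 to 57.2 TPM in animal 1 and 137 to 145 TPM in animal 2. Gsta3 had 360 and 756 expected counts, a ratio of 2.22-fold, or 1.15 with an interval of 0.97 to 1.33. Its deposited intervals were 7.66 to 9.69 TPM and 18.7 to 22.02 TPM. For both genes the 2-fold call held with DESeq2 size factors, with spike-in totals, with TPM as deposited and with the counts of the second quantification. Each of these used the same deposited intervals. Gsta2 had a ratio of 3.57-fold in the same direction and separate intervals, but from 21 and 72 expected counts, below the count minimum.

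Gstm7 was the third gene past 1.5-fold, with 1633 and 2431 expected counts and a ratio of 1.58-fold, higher in animal 2. In all, 3 of 35 genes passed 1.5-fold, where 9.71% of all genes did. Gpx8 was the gene furthest toward animal 1 among those with a mean count of at least 50, at 1190 and 804 expected counts, a ratio of 1.40-fold. The other 31 of 35 were within 1.3-fold of each other in the animals. They include Mgst1, with 15723 and 14995 expected counts and a log2 ratio of 0.01, and Gstz1, with 2059 and 1952 and a log2 ratio of 0.01.

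Separate deposited intervals were found for 14 of 35 genes, 5 of them higher in animal 1 and 9 higher in animal 2, where 12.3% and 20.7% of all genes were. Higher in animal 1 were Gpx1, Gpx3, Gpx8, Selenow and Selenon, and higher in animal 2 were Mgst1, Gpx4, Gstm1, Gstm7, Gstk1, Selenot, Selenos, Gsto1 and Gsta3. These intervals are of TPM as deposited, without TMM scaling, so their directions follow that scale. Mgst1 is among them although its scaled log2 ratio was 0.01. In Gpx4 the TPM and the scaled count pointed in opposite directions. It had 6978 and 6173 expected counts, a log2 ratio of -0.09, while the log2 ratio of its TPM was 0.15, beside the larger share of the 280-base Gpx4-203 in animal 2.

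By class, all 5 peroxidases with a mean count of at least 10 and 9 of 11 such Seleno genes had the lower scaled count in animal 2, with medians of -0.18 and -0.08 on the log2 scale. Over the 37 genes of the set with such a count, 23 were higher in animal 1 and 14 in animal 2, with a median of -0.06. Of all 17012 genes, 51.3% were higher in animal 1 and 48.7% in animal 2, with a median of -0.01. These directions depended on the scaling: with spike-in totals the median of all genes was 0.21, that of the set 0.16, and animal 2 had the higher value in 30 of the 37. The median of the set minus that of all genes was -0.05 with TMM.

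**Figure D4:**
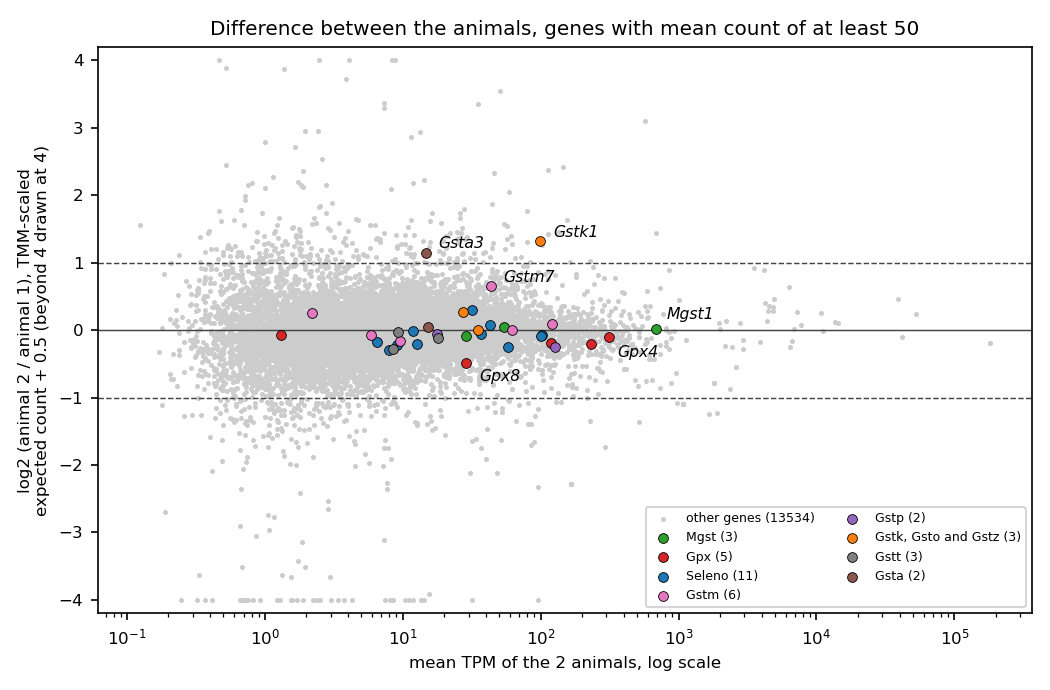
Log2 ratio of animal 2 over animal 1 against mean TPM (log axis) for genes averaging at least 50 expected counts, with the 35 genes of the set coloured by class over all others in grey; dashed lines mark a 2-fold ratio, and ratios beyond 4 in size are drawn at 4. Gstk1 and Gsta3 lie above the upper line, and no gene of the set lies below the lower one.

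Cell-type markers also differed between the libraries. The X-zone pair, Akr1c18 and Pik3c2g, which marks the inner cortical zone of female mice, reached 118 and 1047 TPM, with 2 of 2 genes 2-fold apart. The 7 steroidogenic cortex genes summed to 15669 and 20107 TPM, and none was 2-fold apart. Striated muscle markers summed to 168 and 0.35 TPM, with 8 of 8 genes 2-fold apart, and Ckm, Atp2a1, Myh2 and Myh4 were at 0 in animal 2. The 7 adipocyte markers summed to 3268 and 2089 TPM, all higher in animal 1, and 1 of the 6 with the count, Ucp1, was 2-fold apart. Erythroid markers summed to 2056 and 1577 TPM, hepatocyte markers to 17.9 and 7.07 TPM, and macrophage markers to 97.5 and 114 TPM. Of the hepatocyte markers, 1 of the 2 with the count, Alb, was 2-fold higher in animal 1. Fibroblast and capsule markers were at 93.2 and 81.9 TPM, endothelial markers at 126 and 138 TPM, zona glomerulosa markers at 373 and 330 TPM, and kidney tubule markers at 1.32 and 1.69 TPM with Slc12a1 at 0 in a library. The part of any of these in the ratios of Gstk1, Gsta3, Gstm7 and Gpx8 was not tested, and in whole-tissue RNA more cells of a type and more RNA per cell cannot be told apart.

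The 250 bases before the annotated start of the 2 genes that were apart are shown from RefSeq on GRCm38.p6, the assembly of mm10, both on the plus strand and 5′ to 3′, with motif matches in capitals. The core of the antioxidant response element (TGACNNNGC, either strand), which NRF2 binds, was found in the window of Gsta3, 121 bases before the start. The core recognition letters of the steroidogenic factor NR5A1 (AAGGTCA, either strand) was found in the window of Gstk1 on the minus strand, 141 bases before the start.
Gstk1, chr6:42245685-42245934: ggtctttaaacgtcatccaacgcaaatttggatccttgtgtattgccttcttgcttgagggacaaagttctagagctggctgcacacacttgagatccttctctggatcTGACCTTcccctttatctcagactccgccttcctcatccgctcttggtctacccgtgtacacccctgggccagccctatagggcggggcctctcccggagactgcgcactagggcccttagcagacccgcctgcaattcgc
Gsta3, chr1:21240335-21240584: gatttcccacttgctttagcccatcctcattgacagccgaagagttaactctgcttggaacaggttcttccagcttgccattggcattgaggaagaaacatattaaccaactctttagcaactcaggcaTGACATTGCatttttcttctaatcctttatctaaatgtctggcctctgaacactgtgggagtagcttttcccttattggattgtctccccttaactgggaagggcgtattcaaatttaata
Windows were found for 43 of the 45 genes. The first motif occurred in 5 of them (Gsta3, Gstm5, Gstm7, Mgst1 and Selenok), or 11.6%, and in 11.5% of all genes and 10.2% of all windows. The second occurred in 3 (Gstk1, Gpx2 and Selenoi), or 6.98%, and in 4.70% of all genes and 4.08% of all windows. Starts are those of RefSeq, which can differ from the gene bounds of GENCODE M21. The matches of the first motif in Gstm7, Mgst1 and Selenok lie inside those bounds. A match describes letters only, and the binding of a factor was not measured.

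The 2 quantifications gave different levels for most genes. TPM of the second was higher by 1.74-fold in animal 1 and 1.65-fold in animal 2 at the median of 13292 protein-coding genes. At least 2-fold in both libraries, on the scale of TPM + 1, were 8 of 39 genes of the set (Gpx1, Gpx3, Gstp1, Selenop, Selenom, Mgst2, Gsta3 and Gsta4), all higher in the second, where 17.9% of all 15647 genes compared were that far apart. Less the protein-coding median, 0 of the 39 were, where 5.05% of all were. Gstp2 came nearest in 1 library: less the median, its log2 difference was 0.12 in animal 1 and 1.21 in animal 2. The order of the highest genes was affected, since Gpx4 was at 298 and 329 TPM in the first and Gpx1 at 239 and 226, while the second had them nearly level.

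**Figure D5:**
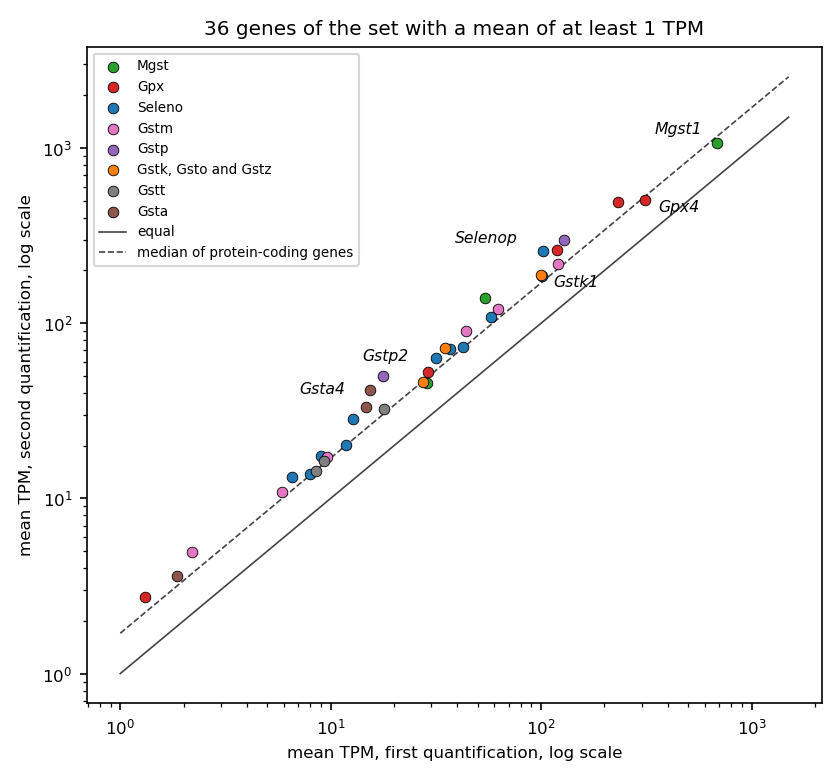
Mean TPM of the second against the first quantification, both on log axes, for the 36 genes of the set with a mean of at least 1 TPM, coloured by class. The points follow the dashed line, the median of protein-coding genes, and lie above the solid line of equal values.

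Some of these genes share sequence with relatives or pseudogenes, and how reads were divided among copies is not known. Of all stretches of 100 bases in their transcripts, 80.6% in Gsta1, 46.9% in Gstp2, 28.4% in Gsta2, 25.2% in Gpx4, 25.1% in Gstp1, 13.8% in Gstm3 and 10.8% in Gstt3 also occurred in another gene. The levels of these 7 genes are uncertain for that reason. The copy nearest to Gpx4 is the pseudogene Gpx4-ps2 at chr10:45875291-45876086, which shares 68.4% of its stretches with Gpx4 and was listed at 28.7 and 29.0 TPM by the first and at 0.752 and 0.363 TPM by the second quantification. Selenok-ps6 was listed at 6.02 and 6.43 TPM and Gstp-ps at 1.53 and 1.36 TPM. Gstk1 and Gsta3, the genes 2-fold apart, and Gpx1 shared no such stretch.

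Genes around the set were followed in 6 lists. Of the 18 genes of glutathione supply and recycling, 16 had a mean count of at least 50, 2 were 2-fold higher in animal 2 and 0 in animal 1. Of all genes with such a count, 1.71% were higher in animal 2 and 1.75% in animal 1 by the same rule. The 2 were Slc3a2, the heavy chain of the cystine transporter, at 53.8 and 112 TPM, and Chac1, which degrades glutathione, at 1.07 and 3.98 TPM. The mitochondrial glutathione carrier Slc25a39 was the highest of the list at 124 and 141 TPM. Gclm, a subunit of the rate-limiting enzyme of glutathione synthesis, was at 26.8 and 24.9 TPM and Oplah, which returns oxoproline to glutamate, at 28.4 and 22.8 TPM.

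Among the 8 selenoproteins outside the symbol rule, 6 had the count and none was 2-fold apart, where 3.46% of all genes with such a count were. The thioredoxin reductase Txnrd1 was at 27.6 and 43.0 TPM, a scaled ratio of 1.56-fold. Its mitochondrial relative Txnrd2 was at 32.5 and 29.9 TPM, Sephs2, which makes the selenium donor, at 34.6 and 26.8 TPM and the methionine sulfoxide reductase Msrb1 at 29.2 and 25.3 TPM. Of the 11 genes of selenocysteine insertion and selenium supply, none of the 10 with the count was 2-fold apart. In lists this short, a count of 0 lies near the share of all genes. The levels of the 11 genes were modest. Secisbp2l was at 15.0 and 17.2 TPM and Selenbp1 at 10.5 and 17.8 TPM. Sephs1 was at 12.4 and 13.1 TPM and the selenocysteine lyase Scly at 12.1 and 11.2 TPM.

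In the list of 14 thioredoxin, peroxiredoxin and glutaredoxin genes, 1 was 2-fold higher in animal 2 and 0 in animal 1. Of all genes, 1.71% and 1.75% were. The gene of the list was Srxn1, the sulfiredoxin that repairs overoxidised peroxiredoxins, at 60.2 and 165 TPM with a ratio of 2.69-fold. The mitochondrial peroxiredoxin Prdx3 was at 307 and 242 TPM. Prdx2 was at 205 and 230 TPM, Prdx1 at 208 and 217 TPM and the mitochondrial thioredoxin Txn2 at 196 and 185 TPM.

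Another list held 14 other enzymes and proteins linked with glutathione, and none of 13 with the count was 2-fold apart. The highest were Esd at 127 and 96.4 TPM and the translation elongation factor subunit Eef1g at 91.6 and 101 TPM. Adh5 was at 57.4 and 62.9 TPM and Glo1 at 43.4 and 43.8 TPM. Srxn1 was also the only gene 2-fold apart among 12 of the 13 genes of the NRF2 list with the count. Among all genes the share apart was 3.46%. The ferritin chains Fth1, at 923 and 941 TPM, and Ftl1, at 485 and 434 TPM, and the pentose phosphate enzyme Pgd, at 104 and 99.4 TPM, led that list.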

How the data were processed

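Total RNA of 2 adrenal glands was measured, 1 library per animal, at 35769717 and 35135703 expected counts. Per the file headers, the first quantification of the authors holds expected counts, TPM, posterior mean TPM and interval bounds of TPM (taken as scores of unstated level), with the column names of RSEM. The second, deposited as a transcript table with the column names of kallisto, holds estimated counts and TPM and was summed per gene. The deposited description gives mm10 and GENCODE M21, and the programs' versions were not stated. The difference between length and effective length was 99 bases in the first and 328 and 323 bases in the second.

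The 45 genes and all lists were chosen with earlier results of these data known. After rounding, expected counts were scaled by TMM (edgeR 4.0.16, R 4.3.3), and DESeq2 1.42.0 size factors were an alternative. Spike-ins (316894 and 256626 counts) and 26248 entries named only by a number stayed out of library sizes and results. Only the ratio and count parts of the 2-fold rule were tried on simulated counts, without the interval part. No result here rests on that trial. With 1 group of 2 values no test was run, since an exact sign-flip test could not reach the threshold, and errors are SDs over the 2 libraries, whose spread includes that of library preparation. Wilson intervals of 95% and the limit of 3 counts describe counting error only, because PCR copies of a molecule were not told apart by molecular identifiers.

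Named were all genes of the set, with values in both libraries above 1 TPM, the 4 highest genes and those 2-fold apart of each pathway list, and transcripts with at least 10% of their gene in both libraries for the 10 highest genes. Others named for their transcripts, Selenok and Selenoi, were chosen after their values were seen. No protein sequences were used, so selenocysteine codons come from the annotation and identity was computed on coding bases aligned by codon. Promoter windows are from RefSeq. Antisense partners that overlap 11 of the genes were kept apart only as far as the strand of the kit was used in the authors' quantification, which was not stated. The alternatives are in the closing section.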

Additional observations from a re-analysis of the deposited data

Results flagged for a closer look

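Reads were also assigned to pseudogenes named after genes of the set, which no comparison above uses, beyond the 3 counts that a count of 0 allows. Gpx4-ps2 had a mean expected count of 732 over the libraries, Selenok-ps6 42.5, Gstp-ps 28.7 and Gstm2-ps1 5.91. Gpx4-ps2 had 761 counts in animal 1 and 703 in animal 2, and its level in the second quantification was 0.752 and 0.363 TPM after 28.7 and 29.0 TPM in the first. Whether these reads came from the pseudogenes or from their parent genes was not tested. With 2 libraries in the group no value could be compared with the spread of others.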

How the results depend on the processing

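Of the 45 genes, 35 were detected, and 33 to 37 under all alternatives tried. The count of 2 genes 2-fold apart was 2 or 3 under each of 8 other scalings, filters and thresholds. The other scalings and the counts of the second quantification each gave 2, all with the same deposited intervals of the first. The looser filters and the 1.5-fold threshold could only keep or raise the count. The summed TPM moved by more than the spread between the animals in the second quantification, where it was 4690 for all genes of the set, 78.7 for Gsta, 462 for Gstm, 349 for Gstp, 63.2 for Gstt, 310 for Gstk, Gsto and Gstz, 1258 for Mgst, 1315 for Gpx and 854 for Seleno, so that Gpx stood above Mgst. Rescaled to nuclear protein-coding genes alone, a smaller total by construction, the same sums were 8293, 105, 810, 485, 119, 536, 2544, 2303 and 1391. With transcripts annotated as protein-coding only, an alternative chosen after seeing the data, the sum was 2250 for all genes, 219 for Gstm, 104 for Gstp, 32.9 for Gstt, 582 for Gpx and 357 for Seleno, and within the spread for Gsta, Mgst and Gstk, Gsto and Gstz. Posterior mean TPM gave 684 for Gpx and 416 for Seleno. The median log2 ratio of -0.06 was -0.079 with DESeq2 size factors, 0.16 with spike-in totals, -0.019 with deposited TPM and -0.090 with the second quantification. Less the protein-coding median, also chosen after seeing the data, 0 genes were 2-fold apart between the quantifications, after 8. The cause was not tested. Leaving out either animal gave each level as that of the other animal, printed above, and left no ratio between animals. No paired analysis was possible because the libraries form 1 group. The 45 single levels moved in 43 genes with the second quantification and in 13 with posterior mean TPM, and 17 of 18 transcript shares moved with the second quantification. Below about 10 expected counts, as for Gstp3, Gstm3, Gsta1 and Selenov, depth allowed no ratio.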
